A study of Caenorhabditis elegans with 23 samples.

Results

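The genes followed here are 9 genes of the P granules of Caenorhabditis elegans: pgl-1, pgl-2, pgl-3, glh-1, glh-2, glh-3, glh-4, deps-1 and iff-1. They were taken by name, as every probe set whose array annotation gives 1 of these symbols, and all 9 were found. They have 10 of the 22548 probe sets on the array and are 9 of 17118 annotated genes, glh-1 having 2 probe sets (175430 and 190711). The probe sets of pgl-1, glh-3 and glh-4 and probe set 175430 of glh-1 are of a kind that can bind several transcripts, so those values are less certain as measures of that gene alone.

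P granules are condensates of RNA and protein on the outer face of germ cell nuclei, where mRNAs and small RNA pathway proteins gather. PGL proteins form their scaffold, GLH proteins are DEAD-box RNA helicases related to Vasa, and other factors help to assemble them or to translate germline mRNAs. Because the genes are transcribed mainly in germ cells, their level in a whole worm depends on how much germline the worm has as well as on how much each germ cell makes, and the 2 cannot be told apart here.

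Total RNA of whole worms was hybridised to 23 arrays, each holding 1 sample. On day 8 there were 3 arrays of glp-1(e2141ts) worms with ash-2 RNAi, 3 of glp-1(e2141ts) worms with empty vector (EV), 3 of wild-type (WT, N2) worms with ash-2 RNAi and 2 of WT worms with EV, the submitters having excluded 1 more array of that group. At the stage labelled L3 the same 4 groups had 3 arrays each. glp-1 encodes the Notch receptor that keeps germline stem cells dividing, and the temperature-sensitive e2141ts worms form few germ cells per the labels, which give 20 degrees as the growth temperature for every group and state no restrictive shift. The product of ash-2 belongs to the histone H3 lysine 4 methyltransferase complex, and the design asks which transcripts change with it at either age and how far that rests on having a germline. The labels do not say that arrays of a group came from separate cultures, so the p-values measure only the spread between these samples, which may be technical.

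Values are log2 intensities made with RMA, a method that summarises the probes of a set. Levels of different probe sets are not on one scale, so each is compared only with itself. The words rose and fell are kept for probe sets with an adjusted p under 0.05 in limma, with Benjamini-Hochberg adjustment over the 22548 probe sets. Errors after ± are standard errors of the log2 difference from that fit. Arrays correlated with their own group at r = 0.983 to 0.997 (mean over the group, across probe sets). Array medians were 4.89 to 5.01 on day 8 and 5.72 to 5.91 at L3, so the ages were put on one distribution by quantile normalization before they were compared. Of 4 ash-2 probe sets, 3 shared ones were higher by log2 4.54 to 8.29 in the arrays labelled ash-2 RNAi. The fourth, 175434, changed by −0.40 in day 8 glp-1, −1.82 in day 8 WT (the only one of these 4 to pass), −0.24 in L3 glp-1 and −0.33 in L3 WT. The sequence cloned for RNAi is not given in the sources used here, so which probe set reports the endogenous transcript is unknown, and each direction below goes by the label ash-2 RNAi alone.

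All 9 genes were far lower in glp-1 than in WT worms, at both ages and under both RNAi treatments. Each of the 10 probe sets fell in each of the 4 comparisons, and no glp-1 array reached the lowest WT array of its comparison. The measured fall of iff-1 was the largest and that of glh-3 the smallest in each of the 4 comparisons. Over all probe sets, 25.4% fell in the day 8 comparison under ash-2 RNAi, 26.6% on day 8 under EV, 20.8% at L3 under ash-2 RNAi and 22.1% at L3 under EV. The members' median difference was −4.27, −4.64, −3.45 and −3.46 in that order, beside medians over all probe sets of 0.07, 0.04, 0.07 and 0.11. The largest adjusted p of any member in these limma comparisons was 7.28e-05. In glp-1 arrays the members' median percentile among all probe sets of the array was 53.3 (day 8, ash-2 RNAi), 50.4 (day 8, EV), 47.1 (L3, ash-2 RNAi) and 50.02 (L3, EV). The matching WT groups had 89.6, 88.7, 82.4 and 83.4. The highest member values in glp-1 arrays lay at percentiles of 78.03, 60.7, 86.8 and 82.3 in the same order. The files used here carry no detection calls, so glp-1 levels are not shown to be above background, and where they are not, a fall is only a lower bound and the order of the falls is one of measured intensities.

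**Figure D1:**
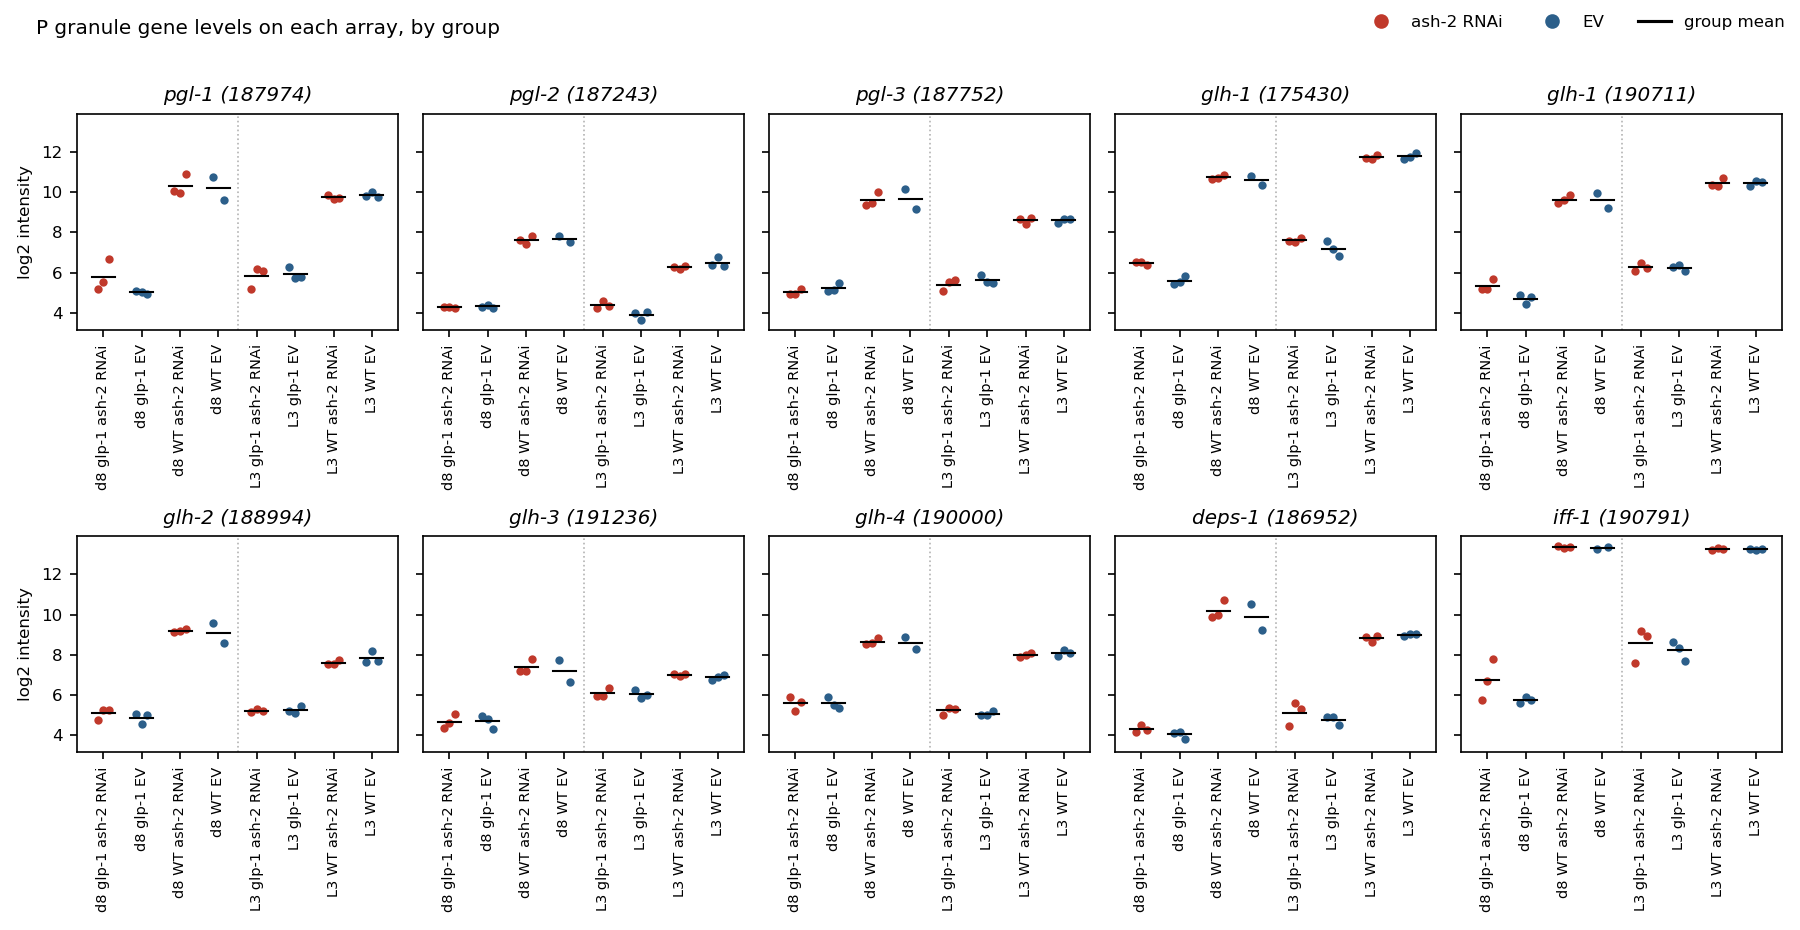
Deposited log2 level (vertical axes, RMA log2 intensity) of each of the 10 probe sets in every array; points are single arrays and horizontal bars are group means. Within an age, glp-1 groups stand left of WT groups and ash-2 RNAi left of EV; every glp-1 array lies below every WT array of its age in each panel.

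Among the scaffold genes, pgl-1, which encodes a founding component of P granules, read 5.16, 5.55 and 6.68 in day 8 glp-1 worms with ash-2 RNAi and 5.11, 5.02 and 4.96 in day 8 glp-1 worms with EV. In day 8 WT worms, pgl-1 read 10.05, 9.94 and 10.88 with ash-2 RNAi and 10.75 and 9.62 with EV. The glp-1 arrays were thus separated from the WT arrays by a wide gap, and the array at 6.68 was the highest of the 6 mutant arrays. At L3, pgl-1 read 5.17, 6.16 and 6.10 in glp-1 with ash-2 RNAi and 6.28, 5.73 and 5.81 in glp-1 with EV. In L3 WT worms it read 9.84, 9.67 and 9.73 with ash-2 RNAi and 9.81, 9.999 and 9.74 with EV, again with no overlap between genotypes. The fall of pgl-1 in glp-1 was −4.49 ± 0.40 (day 8, ash-2 RNAi), −5.16 ± 0.44 (day 8, EV), −3.93 ± 0.22 (L3, ash-2 RNAi) and −3.91 ± 0.22 (L3, EV) on the log2 scale.

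The paralog pgl-3, whose protein binds PGL-1 and RNA, fell by −4.59 ± 0.25 on day 8 under ash-2 RNAi and −4.41 ± 0.28 under EV, and by −3.20 ± 0.15 and −2.95 ± 0.15 at L3 under the same treatments. Its day 8 EV levels were 5.09, 5.16 and 5.47 in glp-1 worms against 10.16 and 9.14 in WT worms. The remaining family member, pgl-2, had a smaller fall at both ages. On day 8 under EV, pgl-2 read 4.30, 4.40 and 4.26 in glp-1 worms and 7.84 and 7.54 in WT worms, a difference of −3.37 ± 0.14. At L3 under EV, pgl-2 read 3.99, 3.66 and 4.05 in glp-1 worms and 6.37, 6.76 and 6.34 in WT worms, a difference of −2.59 ± 0.13. The ash-2 RNAi comparisons gave −3.34 ± 0.12 on day 8 and −1.87 ± 0.13 at L3 for pgl-2.

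Among the helicase genes, glh-1, which encodes a Vasa-related helicase needed for fertility at high temperature, fell on both of its probe sets. On probe set 190711, glh-1 read 4.901, 4.42 and 4.81 in day 8 glp-1 EV worms and 9.98 and 9.19 in day 8 WT EV worms, a difference of −4.87 ± 0.25. On probe set 175430 it read 5.44, 5.53 and 5.82 against 10.81 and 10.35 in those groups, a difference of −4.98 ± 0.16. Both probe sets also separated the genotypes at L3, with differences of −4.19 ± 0.13 (190711) and −4.58 ± 0.15 (175430) under EV. Under ash-2 RNAi the differences were −4.28 and −4.27 on day 8 and −4.19 and −4.13 at L3, again for 190711 and then 175430.

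The gene glh-2, whose protein like GLH-1 carries FG repeats, fell by −4.10 and −4.20 on day 8 (ash-2 RNAi, then EV) and by −2.38 and −2.58 at L3. Its levels under EV were 5.04, 4.56 and 5.01 in day 8 glp-1 worms against 9.57 and 8.58 in day 8 WT worms, and 5.22, 5.12 and 5.48 in L3 glp-1 worms against 7.66, 8.20 and 7.69 in L3 WT worms. For glh-4, which encodes another FG repeat helicase of this family, the falls were −3.06 and −2.997 on day 8 and −2.76 and −3.01 at L3. The smallest falls belonged to glh-3, whose helicase lacks the FG repeats. It read 6.27, 5.85 and 5.999 in L3 glp-1 EV worms and 6.74, 6.90 and 6.996 in L3 WT EV worms, so that the groups were close but did not overlap. The glh-3 difference was −0.91 ± 0.13 (L3, ash-2 RNAi), −0.84 ± 0.13 (L3, EV), −2.71 ± 0.29 (day 8, ash-2 RNAi) and −2.48 ± 0.33 (day 8, EV).

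The P granule assembly factor gene deps-1, whose product also favours accumulation of glh-1 mRNA, read 4.12, 4.19 and 3.84 in day 8 glp-1 EV worms and 10.55 and 9.24 in day 8 WT EV worms. At L3 under EV, deps-1 read 4.905, 4.89 and 4.52 in glp-1 worms and 8.92, 9.02 and 9.03 in WT worms. The WT arrays of day 8 were spread over more than 1 log2 unit and those of L3 were tight. The deps-1 differences were −5.89 ± 0.31 (day 8, ash-2 RNAi), −5.84 ± 0.34 (day 8, EV), −3.70 ± 0.22 (L3, ash-2 RNAi) and −4.22 ± 0.22 (L3, EV).

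The germline eIF5A homolog gene iff-1, which is needed for germ cell proliferation, read 5.61, 5.93 and 5.77 in day 8 glp-1 EV worms and 13.26 and 13.35 in day 8 WT EV worms, a difference of −7.54 ± 0.41, or 186-fold lower. In L3 worms under EV it read 8.62, 8.36 and 7.72 in glp-1 and 13.27, 13.22 and 13.25 in WT, a difference of −5.02 ± 0.32, or 32.4-fold lower. The 11 WT arrays of iff-1 kept between 13.22 and 13.40. The iff-1 difference under ash-2 RNAi was −6.59 ± 0.37 on day 8 and −4.66 ± 0.32 at L3.

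**Figure D2:**
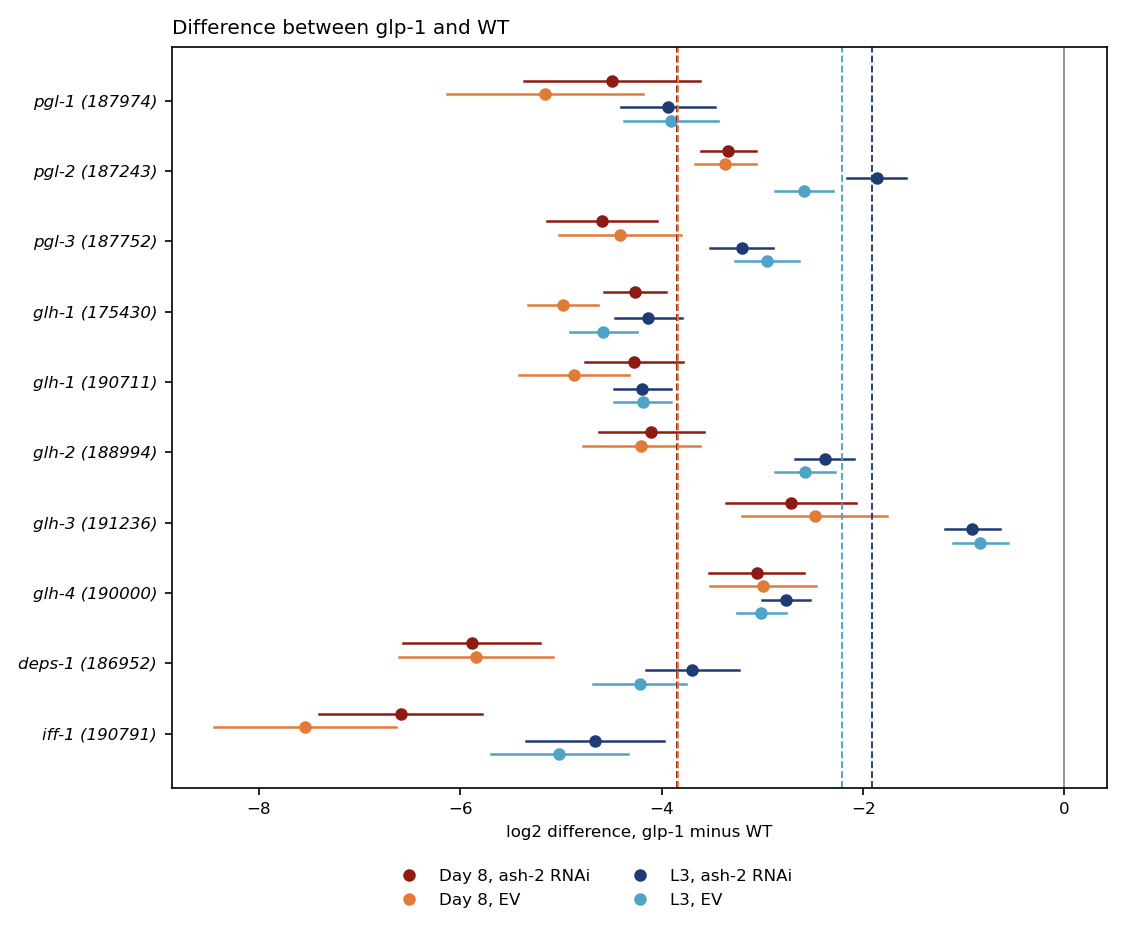
The log2 difference of glp-1 minus WT (horizontal axis) for each probe set in the 4 comparisons, with 95% confidence intervals from limma; filled points passed the adjusted p threshold. Dashed lines mark the mean difference of 24 germline marker genes in each comparison, and every member lies left of 0, from −0.84 for glh-3 at L3 under EV to −7.54 for iff-1 on day 8 under EV.

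Most germline and oocyte markers moved with the members. Of 24 genes of germline proliferation and meiosis, 23 fell on day 8 and 22 at L3 under EV, and their mean level lay between 4.69 and 4.89 in day 8 glp-1 EV arrays against 8.45 to 8.82 in day 8 WT EV arrays, and between 5.62 and 5.67 in L3 glp-1 EV arrays against 7.82 to 7.87 in L3 WT EV arrays. Of 15 oocyte markers, 13 fell and 2 rose on day 8 under EV, and 12 fell and 0 rose at L3 under EV. Of 13 measured sperm markers, 1 fell and 5 rose on day 8 and all 13 fell at L3. Somatic markers went the other way under EV at both ages: all 10 muscle markers, 8 (day 8) and 9 (L3) of 10 neuron markers, 8 and 6 of 9 measured intestine markers, and 7 and 6 of 9 measured somatic gonad markers rose. Centring each array on muscle and neuron genes shifted the median of all probe sets by −1.64 (day 8, ash-2 RNAi), −2.07 (day 8, EV), −0.50 (L3, ash-2 RNAi) and −0.55 (L3, EV). It lowered every probe set alike, so it could not turn a fall into a rise, and all 10 probe sets fell under it. That scaling moved glh-3, glh-4 and pgl-2 by over 1.5 times: on day 8 under EV to −4.56, −5.07 and −5.44, on day 8 under ash-2 RNAi glh-3 to −4.36 and glh-4 to −4.70, and at L3 glh-3 to −1.41 (ash-2 RNAi) and −1.38 (EV).

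Each member was therefore also expressed relative to the mean of the 24 germline markers in the same array, as a description with no test. In glp-1 arrays the marker mean and many member values lie near or below the array median. At L3 iff-1 lay higher, at mean percentiles of 81.2 (ash-2 RNAi) and 78.2 (EV), as did glh-1 on 175430 at 71.3 and 66.9. No level is shown to be above background, so these relative values and their order describe measured intensities only. On day 8 under EV the mean marker difference was −3.83, and iff-1 stood 3.70 log2 units lower in glp-1 than in WT relative to them (0.97 against 4.67), deps-1 stood at −0.75 against 1.26, and pgl-1 at 0.23 against 1.55. The helicase gene glh-1 was lower relative to the markers as well (0.80 against 1.94 on probe set 175430, and −0.09 against 0.95 on 190711). On this scale glh-3 (−0.09 against −1.44), glh-4 (0.81 against −0.03) and pgl-2 (−0.48 against −0.95) read higher in glp-1 than in WT. At L3 under EV, where the mean marker difference was −2.21, glh-3 alone of the 10 probe sets stood higher in glp-1 (0.40 against −0.97). The widest measured gaps were those of iff-1 (2.59 against 5.40), glh-1 on 175430 (1.55 against 3.92) and deps-1 (−0.87 against 1.14). Under ash-2 RNAi the relative difference ran between −2.74 (iff-1) and 1.14 (glh-3) on day 8 and between −2.75 (iff-1) and 0.99 (glh-3) at L3.

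From a list of 46 other P granule and germline RNA genes, 42 were measured and none rose in glp-1 worms. On day 8, 39 fell under ash-2 RNAi and 39 under EV, with medians of −3.55 and −3.58. At L3, 34 fell under ash-2 RNAi and 37 under EV, with medians of −1.53 and −2.002. On day 8 under EV the smallest p-values belonged to oma-2 (−6.96), an oocyte maturation RNA-binding protein, gld-1 (−7.60), a translational repressor of the meiotic germline, pid-1 (−4.52), a factor of piRNA production, and wago-1 (−6.79), a small RNA Argonaute. At L3 under EV they belonged to fbf-2 (−2.67), a PUF repressor of stem cells, mip-1 (−3.65), a LOTUS domain protein that binds GLH-1, ife-1 (−1.80), an eIF4E that binds PGL-1, and cgh-1 (−1.84), a DDX6 helicase.

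With ash-2 RNAi, glh-1 was higher than with EV in day 8 glp-1 worms on its shared probe set, and no other member probe set passed in any of the 4 groups. In day 8 glp-1 worms 1 of 10 probe sets was called, beside 14.8% of all probe sets in either direction. No member was called in day 8 WT worms (1.47% of all), in L3 glp-1 worms (0.798% of all) or in L3 WT worms (0.328% of all). These counts are near the shares of all probe sets and set the members apart from them in no group. At an unadjusted p under 0.05 from the same limma fits, the members counted 3 in day 8 glp-1 (28% of all probe sets), 0 in day 8 WT (8.06%), 2 in L3 glp-1 (12.5%) and 0 in L3 WT (6.84%). The 95% intervals of the members' log2 differences ran from −0.77 to 1.80 in day 8 glp-1, from −0.87 to 1.08 in day 8 WT, from −0.60 to 1.04 in L3 glp-1 and from −0.68 to 0.69 in L3 WT.

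In day 8 glp-1 worms glh-1 on probe set 175430 read 6.50, 6.55 and 6.38 with ash-2 RNAi and 5.44, 5.53 and 5.82 with EV. All 3 ash-2 RNAi arrays lay above the 3 EV arrays, and the rise was 0.88 ± 0.14 (limma, adjusted p = 0.00197). The second glh-1 probe set, 190711, which is not a shared one, read 5.17, 5.20 and 5.69 with ash-2 RNAi and 4.901, 4.42 and 4.81 with EV, also with no overlap. Its difference of 0.64 ± 0.22 did not pass (limma, adjusted p = 0.0783). It passed with the replicate number as a block (adjusted p = 0.048) and with muscle and neuron centring (0.84). That centring moved the median of all probe sets by 0.19 in this comparison.

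In the same worms iff-1 read 5.78, 6.72 and 7.78 with ash-2 RNAi and 5.61, 5.93 and 5.77 with EV, and the groups overlapped. Its difference of 0.99 ± 0.37 did not pass (limma, adjusted p = 0.10), but passed without ash-2 RNAi replicate 1 (1.48, adjusted p = 0.00423) and with muscle and neuron centring (1.19). The shift of 0.19 in the median of all probe sets with that centring holds here too. For pgl-1, whose 3 ash-2 RNAi arrays lay above the 3 EV arrays, the difference was 0.77 ± 0.40 (limma, adjusted p = 0.24). The other members lay between −0.22 (pgl-3) and 0.26 (deps-1). The mean level of oocyte markers was 6.40, 6.51 and 7.08 in the 3 ash-2 RNAi arrays, in the same order as iff-1 and pgl-1. glh-1 followed that order on 190711 (5.17, 5.20 and 5.69) but not on 175430 (6.50, 6.55 and 6.38), the probe set that was called. In the 3 EV arrays the oocyte mean was 6.23, 6.15 and 6.23 and did not follow the order of iff-1 or pgl-1. Of 15 oocyte markers 4 rose, of 24 germline markers 3 rose, of 9 intestine markers 5 fell and 1 rose, and of 10 neuron markers 2 fell. Of 13 sperm markers 3 fell, of 9 somatic gonad markers 2 rose and of 10 muscle markers 1 fell. Over all probe sets 7.18% rose and 7.63% fell. The part of these markers in the glh-1 result was not tested.

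In L3 glp-1 worms the nearest to a call was pgl-2, which read 4.24, 4.59 and 4.36 with ash-2 RNAi and 3.99, 3.66 and 4.05 with EV. The groups did not overlap, and the difference of 0.50 ± 0.13 did not pass (limma, adjusted p = 0.125). glh-1 on probe set 175430 differed by 0.41 ± 0.15 (limma, adjusted p = 0.27) and on 190711 by 0.01 ± 0.13. deps-1 read 4.49, 5.61 and 5.29 with ash-2 RNAi and 4.91, 4.89 and 4.52 with EV, a difference of 0.36 ± 0.22 that passed only without ash-2 RNAi replicate 1 (0.68, adjusted p = 0.0355). That array was the lowest of its 3 for 9 of the 10 member probe sets, and its oocyte marker mean was 6.65 beside 8.37 and 8.08 in the others of its group, while the 3 EV arrays had 7.43, 7.74 and 6.59.

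In WT worms the ash-2 RNAi and EV arrays were close. On day 8 the members' differences lay between −0.07 (pgl-2) and 0.30 (deps-1), with a smallest adjusted p of 0.9998. The 2 day 8 WT EV arrays differed from each other: replicate 1 lay above replicate 2 for 9 of the 10 probe sets, iff-1 being the exception, and their germline marker means were 8.82 and 8.45. At L3 the differences lay between −0.24 (glh-2) and 0.13 (glh-3), with a smallest adjusted p of 0.855. Only pgl-2 separated there, reading 6.28, 6.19 and 6.31 with ash-2 RNAi and 6.37, 6.76 and 6.34 with EV, a difference of −0.23 ± 0.13 (limma, adjusted p = 0.86).

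The RNAi change in glp-1 minus that in WT was tested for each member. On day 8 none of the 10 was called, beside 4% of all probe sets, and 1 was under an unadjusted p of 0.05. The closest was glh-1 on 175430, at 0.72 ± 0.21 (limma, adjusted p = 0.0920), so that the glh-1 rise in glp-1 worms is not shown to differ from the 0.16 measured in WT worms. It passed with muscle and neuron centring (1.15, adjusted p = 0.0412), which moved the median of all probe sets by 0.43 in this test. At L3 none of the members and 0% of all probe sets were called, 1 member was under an unadjusted p of 0.05 and the smallest adjusted p of a member was 0.434 (pgl-2, 0.72 ± 0.19). The day 8 RNAi change minus the L3 RNAi change gave no called member in glp-1 worms (10% of all probe sets, 2 members under an unadjusted p of 0.05) or in WT worms (1.2% of all, 0 members). In glp-1 worms pgl-2 came nearest at −0.54 ± 0.17 (limma, adjusted p = 0.0526). It passed with the dimmest 40 percent of probe sets left out (adjusted p = 0.0488) and without day 8 glp-1 EV replicate 3 (−0.59, adjusted p = 0.0468).

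**Figure D3:**
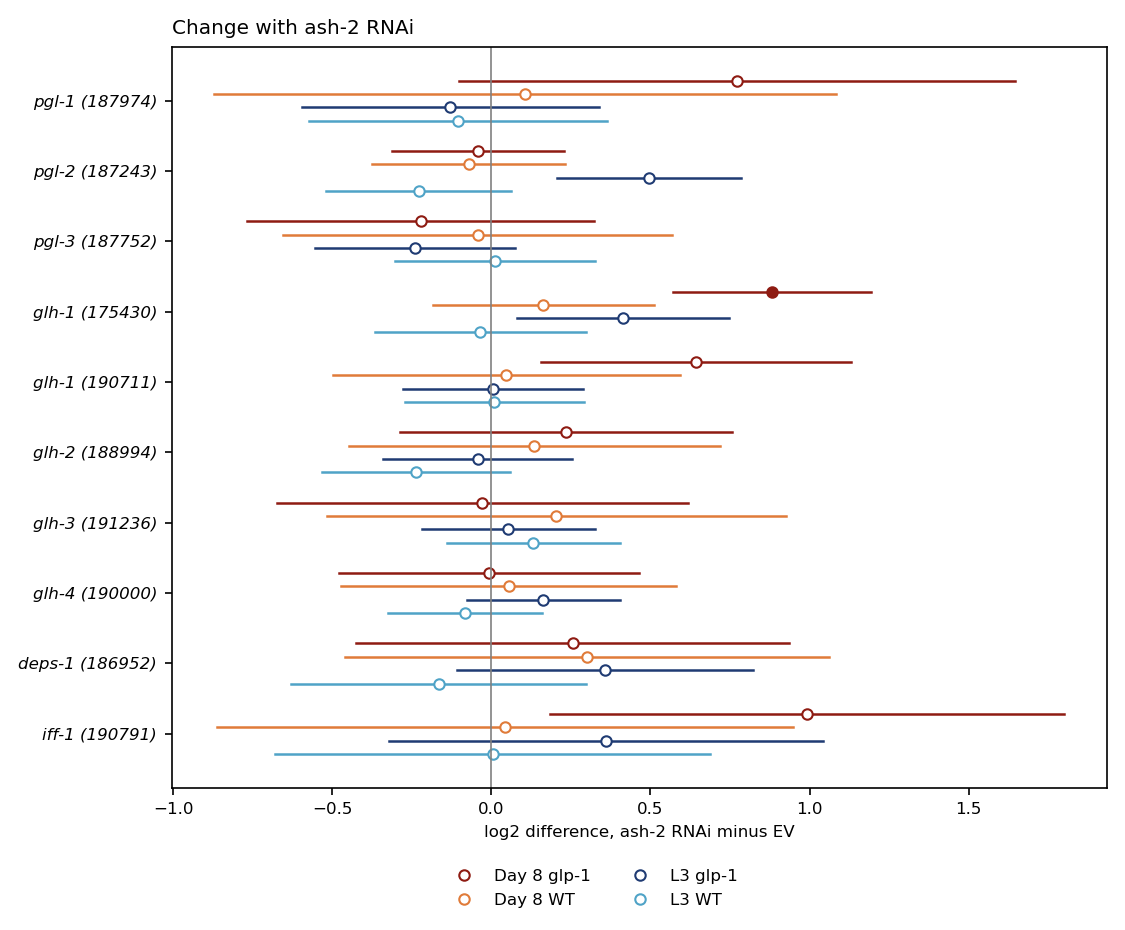
The log2 difference of ash-2 RNAi minus EV (horizontal axis) for each probe set in the 4 comparisons, with 95% confidence intervals from limma; filled points passed the adjusted p threshold. The single filled point is glh-1 on probe set 175430 in day 8 glp-1 worms, at 0.88.

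Of the 42 other P granule and germline RNA genes, 7 rose and 3 fell with ash-2 RNAi in day 8 glp-1 worms. Over all probe sets 7.18% rose and 7.63% fell, and the medians were 0.09 for the list and 0.03 over all. The genes of the list with the smallest p were oma-2 (1.76), gld-1 (1.10), prg-1 (1.47), which encodes the piRNA-binding Argonaute, and nos-2 (−0.91), a Nanos homolog of primordial germ cells. prg-1 was also the 1 gene of the list called in L3 glp-1 worms (0.57, limma adjusted p = 0.0341). None was called by limma in WT worms, where 0 genes on day 8 and 5 at L3 were under an unadjusted p of 0.05. The RNAi change in glp-1 exceeded that in WT on day 8 for oma-2 (1.76) and gld-1 (1.15) and was below it for nos-2 (−1.001), and no other gene of the list passed that test on day 8. At L3 none passed, and 12 were under an unadjusted p of 0.05.

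Between the ages, after quantile normalization, WT worms had higher levels of most of these genes on day 8 than at L3, and lower levels of glh-1. In WT worms 24 of 24 germline markers rose under ash-2 RNAi and 20 of 24 under EV, with 15 and 14 of 15 oocyte markers. Relative to the germline marker mean, on deposited values and untested, several members read lower on day 8 in WT EV worms. These were glh-1 (−1.98 and −1.65), iff-1 (−0.73), glh-3 (−0.47), pgl-1 (−0.45) and glh-4 (−0.28). On that scale glh-2 (0.44), pgl-2 (0.41), pgl-3 (0.27) and deps-1 (0.12) read higher. The glh-1 falls in WT worms did not pass with median centring, on either probe set or under either treatment. Under ash-2 RNAi 6 of the 10 probe sets rose and 2 fell on day 8, beside 37.3% and 27.2% of all probe sets. Under EV 6 rose and 2 fell, beside 35.8% and 26% of all. In glp-1 worms 3 rose and 3 fell under ash-2 RNAi (33.8% and 27.6% of all) and 2 rose and 4 fell under EV (32.1% and 27.8% of all). In glp-1 worms the members' shares are near those of all probe sets. The split in glp-1 worms with ash-2 RNAi moved with the scaling, to 5 up and 2 down with median centring and 0 up and 5 down on the deposited values. With EV in glp-1 worms it was 2 up and 6 down on the deposited values, where pgl-1 (−0.91) and deps-1 (−0.72) also fell. In glp-1 worms with ash-2 RNAi median centring moved the median of all probe sets by 0.47 and the deposited values moved it by −0.39. With EV the deposited values moved it by −0.40. The shares of all probe sets called under these scalings are not given here. Day 8 and L3 differ in stage as well as age, and the array sets are split by age, so array processing and age cannot be told apart.

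In WT worms under EV the quantile-normalized mean of pgl-2 was 7.70 on day 8 and 6.01 at L3, a rise of 1.69 ± 0.14 (limma, adjusted p = 8.65e-10). Also in these worms glh-2 averaged 9.07 on day 8 and 7.62 at L3, a rise of 1.44 ± 0.24, and pgl-3 averaged 9.73 and 8.49, a rise of 1.23 ± 0.27. The rises of deps-1 (1.10 ± 0.36), glh-3 (0.86 ± 0.25) and glh-4 (0.63 ± 0.19) passed too, while pgl-1 (0.56 ± 0.42) and iff-1 (0.67 ± 0.43) did not. With ash-2 RNAi the WT rises were 1.90 for pgl-2, 1.81 for glh-2, 1.61 for deps-1, 1.14 for pgl-3, 0.88 for glh-3 and 0.76 for glh-4. Several of the EV values rest on the 2 day 8 WT EV arrays. Without replicate 1, deps-1 (0.30), glh-3 (0.45) and glh-4 (0.35) no longer passed, and glh-2 and pgl-3 passed at 0.92 and 0.63. Without replicate 2, deps-1 was 1.92 and pgl-1 passed at 1.30. With ash-2 RNAi pgl-1 differed by 0.77 ± 0.37 and passed without day 8 WT ash-2 RNAi replicate 2 (0.999). On the deposited values the glh-3 rises did not pass (0.39 with ash-2 RNAi and 0.32 with EV), while with median centring pgl-1 (1.53 with ash-2 RNAi and 1.31 with EV) and iff-1 (1.09 and 1.03) passed too. Median centring also moved pgl-3 (1.996 with ash-2 RNAi and 2.03 with EV) and glh-4 (1.64 and 1.48), glh-3 with ash-2 RNAi (1.38), and glh-2 (2.196) and deps-1 (1.87) with EV by over 1.5 times, and with the replicate block glh-4 under EV was 0.95.

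In contrast to the other helicase genes, glh-1 fell on day 8 in WT worms, averaging 10.84 against 11.58 at L3 under EV on probe set 175430 (−0.74 ± 0.21) and 9.63 against 10.36 on 190711 (−0.72 ± 0.23). With ash-2 RNAi the WT falls were −0.48 ± 0.19 and −0.68 ± 0.21. This direction depended on how the ages were put on one scale: with median centring 175430 gave −0.22 (EV) and −0.0045 (ash-2 RNAi), and 190711 gave 0.11 and 0.17, none of which passed. Under EV without day 8 WT EV replicate 2 the values were −0.41 and −0.26 and did not pass, and 190711 without replicate 1 was −1.20. With ash-2 RNAi the fall on 175430 did not pass without L3 WT ash-2 RNAi replicate 1 (−0.50) or 3 (−0.41) or without day 8 WT ash-2 RNAi replicate 1 (−0.41) or 2 (−0.47). With the replicate block 175430 with ash-2 RNAi (−0.57, limma adjusted p = 0.0599) and 190711 with EV (−0.47, adjusted p = 0.0951) did not pass. On the deposited values 175430 was −0.99 with ash-2 RNAi and −1.19 with EV. Median centring moved the median of all probe sets by 0.61 in WT worms under either treatment, to 0.71, and 8 members rose and 0 fell with it under each treatment. The share of all probe sets that rose under that scaling is not given here, so these counts are not read as a trait of the members.

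In glp-1 worms under EV, glh-4 (1.27 ± 0.17) and pgl-2 (0.86 ± 0.12) rose on day 8, and iff-1 (−1.95 ± 0.38), glh-1 (−0.94 ± 0.19 on 175430, −0.80 ± 0.21 on 190711) and glh-3 (−0.59 ± 0.22) fell. With ash-2 RNAi glh-4 (1.17), glh-2 (0.68) and pgl-2 (0.32) rose and iff-1 (−1.36), glh-3 (−0.62) and glh-1 on 175430 (−0.53) fell. The iff-1 fall with ash-2 RNAi was −0.89 without day 8 replicate 1. On the deposited values, whose medians of all probe sets moved by −0.39 and −0.40 in these comparisons, pgl-2 (−0.12) and glh-2 (−0.13) with ash-2 RNAi turned negative and did not pass, and glh-4 with ash-2 RNAi was 0.35 and did not pass. The EV rises were smaller on that scale, at 0.53 for glh-4 and 0.42 for pgl-2, and the falls larger, at −1.59 and −1.54 for glh-1 and −1.33 for glh-3 with EV and −1.13 for glh-1 on 175430 and −1.41 for glh-3 with ash-2 RNAi. With median centring and ash-2 RNAi, glh-1 on 175430 was −0.27 (limma adjusted p = 0.125) and pgl-2 was 0.74. The glh-3 falls did not pass with the replicate block (−0.59 with ash-2 RNAi and −0.56 with EV). Without single arrays the glh-3 fall under EV lost its call at −0.48 (L3 glp-1 EV replicate 1) and −0.36 (day 8 glp-1 EV replicate 3). With ash-2 RNAi the glh-3 fall did not pass without L3 replicate 3 (−0.497) or day 8 replicate 1 (−0.43) or 2 (−0.599), and glh-1 on 175430 did not without L3 replicate 3 (−0.45) or day 8 replicate 1 (−0.504). The pgl-2 rise with ash-2 RNAi lost its call without L3 replicate 1 (0.25) or 3 (0.29) or day 8 replicate 1 (0.29) or 2 (0.31), and pgl-1 (0.85 ± 0.37) passed without L3 replicate 2 (1.01) or day 8 replicate 1 (1.18).

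**Figure D4:**
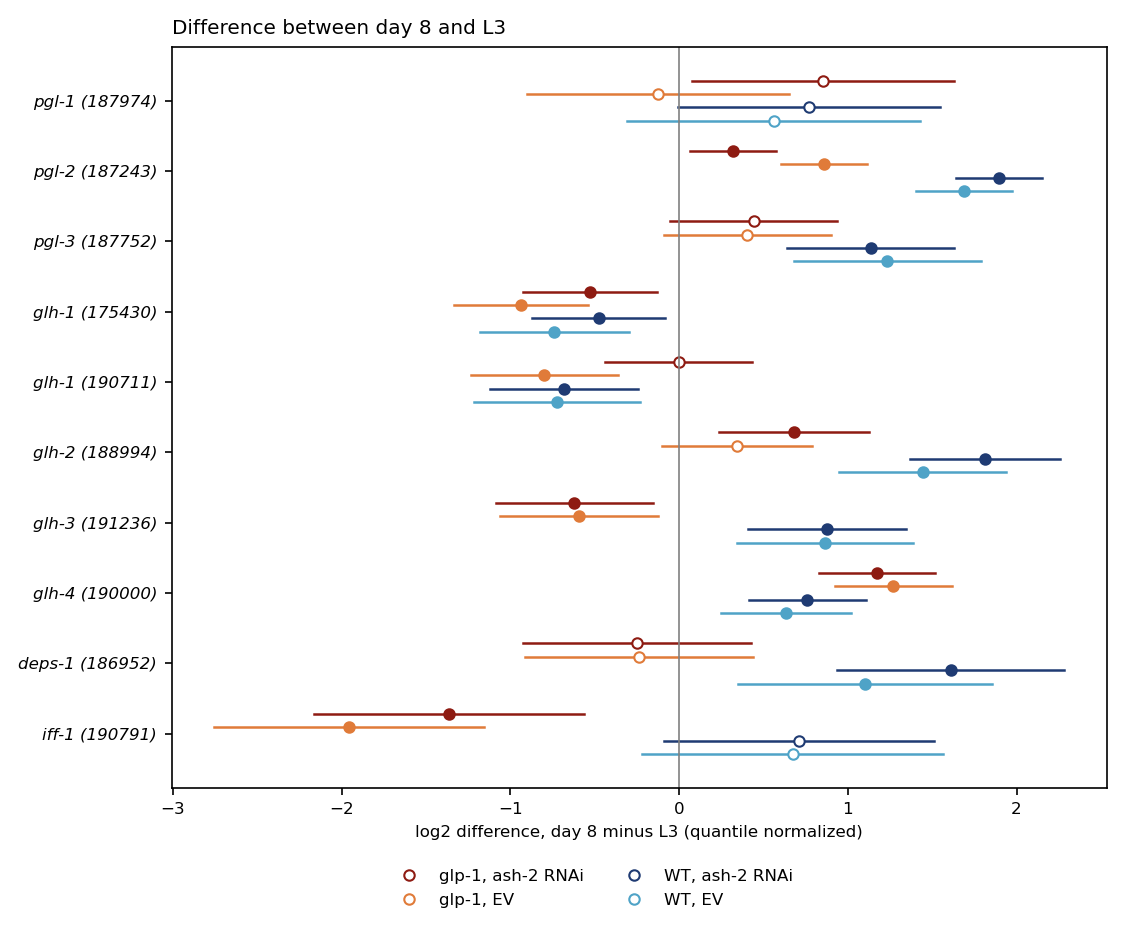
The log2 difference of day 8 minus L3 after quantile normalization (horizontal axis) for each probe set in the 4 combinations of genotype and RNAi, with 95% confidence intervals from limma; filled points passed the adjusted p threshold. The points of iff-1, glh-3 and deps-1 lie left of 0 in glp-1 worms and right of 0 in WT worms. Those of glh-2, glh-4, pgl-2 and pgl-3 lie right of 0 in all 4.

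The difference between glp-1 and WT under EV was itself tested between the ages, as the day 8 difference minus the L3 difference. Of the 10 probe sets 5 fell, meaning a wider gap between genotypes on day 8, and 1 rose, beside 28.2% and 24.2% of all probe sets. In either direction 52.5% of all probe sets were called, so 6 of 10 is near that share. On the deposited values 8 fell and 0 rose, and with median centring 9 fell and 0 rose. The median of all probe sets moved by −0.01 and −0.19 with these scalings. The shares of all probe sets called under them are not given here, so these counts are not read as a trait of the members. With adjusted p-values from limma in parentheses, the values were −2.63 ± 0.57 for iff-1 (6.15e-04), −1.46 ± 0.33 for glh-3 (9.66e-04), −1.34 ± 0.48 for deps-1 (0.0251), −1.10 ± 0.32 for glh-2 (0.00613) and −0.83 ± 0.18 for pgl-2 (6.34e-04). glh-4 went the other way at 0.64 ± 0.25 (0.0364), but was 0.013 on the deposited values and −0.17 with median centring, neither of which passed, and its call also ended without L3 WT EV replicate 2 (0.56) or 3 (0.61), L3 glp-1 EV replicate 1 (0.601) or 2 (0.63), day 8 WT EV replicate 2 (0.37) or day 8 glp-1 EV replicate 1 (0.504). deps-1 did not pass without day 8 WT EV replicate 1 (−0.54), L3 glp-1 EV replicate 2 (−1.25) or day 8 glp-1 EV replicate 3 (−1.20), and was −2.16 without day 8 WT EV replicate 2, and glh-2 did not pass without day 8 WT EV replicate 1 (−0.58) and was −1.81 with median centring. pgl-1 (−0.69), pgl-3 (−0.83) and glh-1 (−0.20 and −0.07) did not pass, although pgl-1 (−1.43) and pgl-3 (−1.44) did without day 8 WT EV replicate 2, and pgl-3 did without day 8 glp-1 EV replicate 3 (−0.95).

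The other P granule and germline RNA genes were higher on day 8 in WT worms. Of the 42 measured, 36 rose and 0 fell under ash-2 RNAi and 35 rose and 0 fell under EV, with medians of 1.66 and 1.33 beside 0.10 over all probe sets for each. The smallest p-values in WT EV worms were those of meg-3 (2.78), an intrinsically disordered P granule protein of the embryo, elli-1 (2.56), a germline granule protein, mex-1 (3.31), a CCCH zinc finger protein of the early embryo, and wago-4 (1.94), an Argonaute that transmits inherited small RNAs. In glp-1 worms 7 rose and 8 fell under ash-2 RNAi and 12 rose and 8 fell under EV, with medians of −0.13 and −0.02. The genotype gap was wider on day 8 for 31 of the 42 under EV and narrower for 0, with the smallest p for meg-4 (−2.70), wago-4 (−2.13), mex-1 (−2.70) and car-1 (−1.42), a P granule RNA-binding protein. No gene of the list passed limma's test of the RNAi change between ages, with 8 in glp-1 worms and 2 in WT worms under an unadjusted p of 0.05.

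The genes whose pattern over the 23 arrays was most like those of pgl-1 and glh-1 were sought by Pearson correlation after the mean of each age was subtracted. The arrays fall into low glp-1 and high WT values, so r mostly reflects that split, and it is given as a description only. For pgl-1 the 5 closest were uad-2 (r = 0.991), B0001.7 (0.988), C14B1.7 (0.988), T21B10.4 (0.987) and fbxa-114 (0.987). For glh-1 on probe set 175430 they were fbxa-114 (0.995), ppw-2 (0.994), an Argonaute of the WAGO clade, dnj-22 (0.992), hpo-32 (0.991) and C14B1.7 (0.991). The values of B0001.7, ppw-2, dnj-22 and hpo-32 come from shared probe sets.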

How the data were processed

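The 23 arrays carried whole-worm RNA labelled with biotin, per the labels' protocols. RMA gave the authors' deposited log2 intensity of each probe set, as named in the submitters' processing notes, with no version or chip build in the sources used here. The number of arrays limits the precision. All 22548 probe sets were used, with 6 empty cells in 5 probe sets, none of them of a member. Symbols came from the platform annotation (20766 probe sets name 1 gene, 887 several and 895 none), of which 20701 were updated through a RefSeq gene table (WBcel235).

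Groups were compared with limma 3.58.1 in R 4.3.3, with 1 mean for each group, eBayes at its defaults, two-sided tests and Benjamini-Hochberg adjustment over all probe sets. The 10 comparisons within an age used the deposited values of that age, and the 7 between ages the quantile-normalized values of all arrays. Interactions are the change in glp-1 minus that in WT, and the day 8 change minus the L3 change. Germline markers are the brightest probe set of 24 genes, none of them a P granule gene listed here. Named genes are all members, ash-2, the 4 passing genes of the other P granule list with the smallest p in each comparison, and the 5 genes most like pgl-1 and glh-1. The members and all lists were chosen with earlier results of these data known.

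Simulated data with 50 probe sets changed at each size were used to test the fits. In the day 8 WT design 2, 33, 49 and 50 of 50 were recovered at log2 0.5, 1, 2 and 4 with 9 false calls among 22544 probe sets, and in the L3 WT design 28, 49, 49 and 50 with 10 false calls among 22547. Alternatives were quantile normalization (for ages, the deposited values), centring on the array median or on muscle and neuron genes, dropping either the dimmest 40 percent or the shared probe sets, limma's trend and robust settings, the replicate number as a block, and leaving out each array. Replicate numbers were not taken as pairing in the main fit, although L3 arrays of the same number tended to deviate together from their group means. At L3 9 of 18 same-numbered pairs correlated above 0.1 (−0.05 to 0.49) and 2 of 36 others (−0.39 to 0.24). On day 8 3 of 15 same-numbered pairs did (−0.42 to 0.28) and 9 of 30 others (−0.55 to 0.55).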

Additional observations from a re-analysis of the deposited data

Results flagged for a closer look

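The difference between glp-1 and WT worms under EV was not the same at the 2 ages for 6 of the 10 member probe sets, by limma's test of the day 8 difference minus the L3 difference, beside 52.5% of all probe sets. It was wider on day 8 for iff-1 (−2.63), glh-3 (−1.46), deps-1 (−1.34), glh-2 (−1.10) and pgl-2 (−0.83), and narrower for glh-4 (0.64). The glh-4 value was 0.013 on the deposited values and −0.17 with median centring, neither passing, and 6 single arrays each ended its call when left out. On the quantile-normalized scale the mean of iff-1 was 6.196 on day 8 and 8.15 at L3 in glp-1 worms, and 13.58 on day 8 and 12.91 at L3 in WT worms. The mean of glh-3 was 5.08 on day 8 and 5.68 at L3 in glp-1 worms, and 7.31 on day 8 and 6.44 at L3 in WT worms. Muscle markers also differed by age and genotype, with mean levels of 9.78 to 10.21 in day 8 glp-1 EV arrays against 7.61 to 7.62 in day 8 WT EV arrays, and of 11.96 to 12.05 in L3 glp-1 EV arrays against 11.57 to 11.65 in L3 WT EV arrays. Their part in these differences was not tested.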

How the results depend on the processing

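All 10 probe sets fell in all 4 glp-1 against WT comparisons under every setting that kept them, and 6 of 6 fell with the shared probe sets left out. Muscle and neuron centring, among these settings, lowered every probe set and could not turn a fall into a rise. With ash-2 RNAi in day 8 glp-1 worms the 1 called probe set became 3 with muscle and neuron centring, 0 with the shared probe sets left out, 2 with the replicate block and 1 to 2 with single arrays left out; in L3 glp-1 worms 0 became 0 to 1 without single arrays. The day 8 RNAi by genotype count of 0 became 1 with muscle and neuron centring, and the RNAi by age count of 0 in glp-1 worms became 1 with the dimmest probe sets left out and 0 to 1 without single arrays. Between ages, leaving out the shared probe sets kept 6 of the 10. It gave 3 calls of these 6 in glp-1 worms with ash-2 RNAi, 3 with EV, and 5 in WT worms under each treatment. Leaving out single arrays gave 3 to 7 calls of 10 for glp-1 with ash-2 RNAi and 5 to 8 for WT with EV. With median centring the calls in glp-1 worms with ash-2 RNAi were 5 up and 2 down, and on the deposited values 0 up and 5 down. The shares of all probe sets called under these scalings are not given here. On the deposited values in glp-1 worms with ash-2 RNAi, pgl-2 (−0.12) and glh-2 (−0.13) changed sign between ages. With median centring glh-1 on 190711 did so in WT worms (0.17 with ash-2 RNAi, 0.11 with EV), and glh-4 in the genotype by age test (−0.17). The causes were not tested. The replicate block gave 5 member calls between ages in glp-1 worms with ash-2 RNAi, 5 with EV, 7 in WT worms under each treatment and 7 in the genotype by age test; 9 of 12 L3 arrays correlated best with an array of their own number, and 1 of 11 on day 8. On day 8, with 2 WT EV arrays, changes of log2 0.5 were mostly missed in simulated data.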
